A study of Mus musculus with 6 samples.

Results

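The genes described here are 10 cytosolic heat shock chaperone genes of the mouse, chosen by name: Hsf1, Hspa1a, Hspa1b, Hspa8, Hsph1, Hsp90aa1, Hsp90ab1, Dnajb1, Bag3 and Hspb1. All 10 were found among the 32067 features of the deposited table. Hippocampal poly(A) RNA was sequenced in 6 libraries from female wild type C57BL/6J mice, collected at 17 weeks of age after bilateral ovariectomy, which removes the main source of estrogen. The OVX+RJ group (3 libraries) ate a diet with 1% royal jelly, a honeybee secretion, from 8 weeks of age, and the OVX group (3 libraries) ate a control diet. Both groups carry the ovariectomy, and the sham-operated mice that the protocol names are not analysed here. The labels call each library a biological replicate.

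Heat shock chaperones bind unfolded protein in the cytosol and help it fold, or pass it on to be degraded. HSP70 proteins work with J-domain cochaperones, which deliver clients and trigger ATP hydrolysis, and with nucleotide exchange factors, which release the client. HSP90 proteins act later, on kinases, steroid receptors and other clients. Heat and other protein damage activate the transcription factor HSF1, which binds heat shock elements, repeats of the bases GAA in alternating orientation. Some members, such as Hspa8 and Hsp90ab1, are expressed in most cells without stress, whereas Hspa1a, Hspa1b and Hspb1 are known as strongly inducible. Neurons are known for a weak induction of HSP70 compared with glia.

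RefSeq promoter windows on build GRCm38.p6, from 250 bases before to 50 bases after a gene's start, were given for 6 of the 10 genes, in 8 windows. Hsf1, Hspa8, Hsp90aa1 and Hsp90ab1 had none. The inducible HSP70 genes Hspa1a and Hspa1b, Hspb1 and Hsph1 are shown, because their windows hold the heat shock element letters searched for and because the first pair shows how alike these copies are. Each is printed on the strand of its gene, and capitals mark GAANNTTC, extended where a further unit adjoins it. In Hsph1 the further unit comes before the GAANNTTC match.
Hspa1a, chr17:34972107-34972406, minus strand: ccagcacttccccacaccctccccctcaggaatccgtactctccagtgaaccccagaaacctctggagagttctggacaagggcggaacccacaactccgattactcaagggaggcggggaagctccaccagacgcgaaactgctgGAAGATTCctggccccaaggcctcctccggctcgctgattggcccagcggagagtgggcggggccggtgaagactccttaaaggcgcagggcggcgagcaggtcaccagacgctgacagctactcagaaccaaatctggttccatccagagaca
Hspa1b, chr17:34959189-34959488, minus strand: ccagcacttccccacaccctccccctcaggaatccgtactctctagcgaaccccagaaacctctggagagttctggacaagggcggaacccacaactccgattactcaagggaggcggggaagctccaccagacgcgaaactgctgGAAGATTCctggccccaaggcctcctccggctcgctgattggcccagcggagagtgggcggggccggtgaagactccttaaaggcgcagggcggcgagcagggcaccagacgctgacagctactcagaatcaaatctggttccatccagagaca
Hspb1, chr5:135887669-135887968, plus strand: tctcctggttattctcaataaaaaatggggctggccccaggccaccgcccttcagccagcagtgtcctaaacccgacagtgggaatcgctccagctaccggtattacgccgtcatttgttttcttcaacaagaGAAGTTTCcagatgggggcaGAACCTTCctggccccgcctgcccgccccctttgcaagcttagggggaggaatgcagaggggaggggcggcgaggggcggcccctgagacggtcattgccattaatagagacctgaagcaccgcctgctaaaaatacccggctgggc
Hsph1, chr5:149636266-149636565, minus strand: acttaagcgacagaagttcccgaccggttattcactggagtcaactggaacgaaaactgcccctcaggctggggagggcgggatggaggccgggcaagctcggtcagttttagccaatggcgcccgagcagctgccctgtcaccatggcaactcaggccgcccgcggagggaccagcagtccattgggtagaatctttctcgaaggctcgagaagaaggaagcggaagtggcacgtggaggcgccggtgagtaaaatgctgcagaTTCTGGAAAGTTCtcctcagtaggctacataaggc

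The letters GAANNTTC read the same on both strands and were present in 5 of the 6 genes with a window, Dnajb1 being the exception, and in 9.04% of all 27025 genes with a window. The match began 104 bases before the start in both Hspa1a and Hspa1b, 117 and 97 bases before it in Hspb1, and 20 bases after it in the Hsph1 window shown. In Bag3 it began 42 bases after the start. The longer form GAANNTTCNNGAA, or TTCNNGAANNTTC on the other strand, overlaps the short one. It was found in Hsph1 alone among the 6 genes, and in 0.662% of the 27025 genes. The Bag3 match ends at the last base of its window, so a further unit after it could not be seen. The windows of Hspa1a and Hspa1b differed at 4 of 300 bases, which are C44T, T47C, T249G and C276T, with the Hspa1a base first and positions counted from 1 at the 5′ end of the window. None of the 4 falls inside the matched letters.

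Counts per library totalled between 34718596.5 in OVX 1 and 58163785 in OVX 2. Levels are given as CPM, counts scaled to a common total over all rows of the table. OVX+RJ 1 stood apart, with a mean Pearson correlation to the other 5 libraries of 0.983 across genes on the log2 CPM scale, against 0.986 to 0.987 for the others. The tissue label was checked only against 10 neuron markers, a list that does not set hippocampus apart from other brain regions. All 10 were expressed, with levels that summed to between 11650 and 12220 CPM in OVX+RJ, and to between 11760 and 12000 CPM in OVX. In bulk tissue, fewer cells of a type and less RNA per cell cannot be told apart.

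None of the 10 genes, each tested singly, showed a difference between the diets that passed the test. No test of the genes as a set was run. By the quasi-likelihood test of edgeR, with p-values adjusted by Benjamini-Hochberg over 18629 tested genes, 0 of the 10 members were called, and 0 genes of the whole table were called, a background of 0%. DESeq2 also called 0 members, against 13 genes of the whole table, a background of 0.0698%. Limma-voom called 0 members and 0 genes in all. At an unadjusted p under 0.05 there was 1 member, Hsf1, on the lower side, against a background of 4.05% of all genes tested in either direction and 1.91% lower. The members' median log2 fold change of OVX+RJ over OVX was 0.033, against -0.0015 over all genes tested, with 7 members positive and 3 negative, where 49.6% of all genes tested were positive. All 10 passed the filter on low counts. The 95% intervals from limma lay within 0.5 of 0 on the log2 scale for 9 members, with bounds from -0.44 to 0.41, and Hspb1 was the exception.

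**Figure D1:**
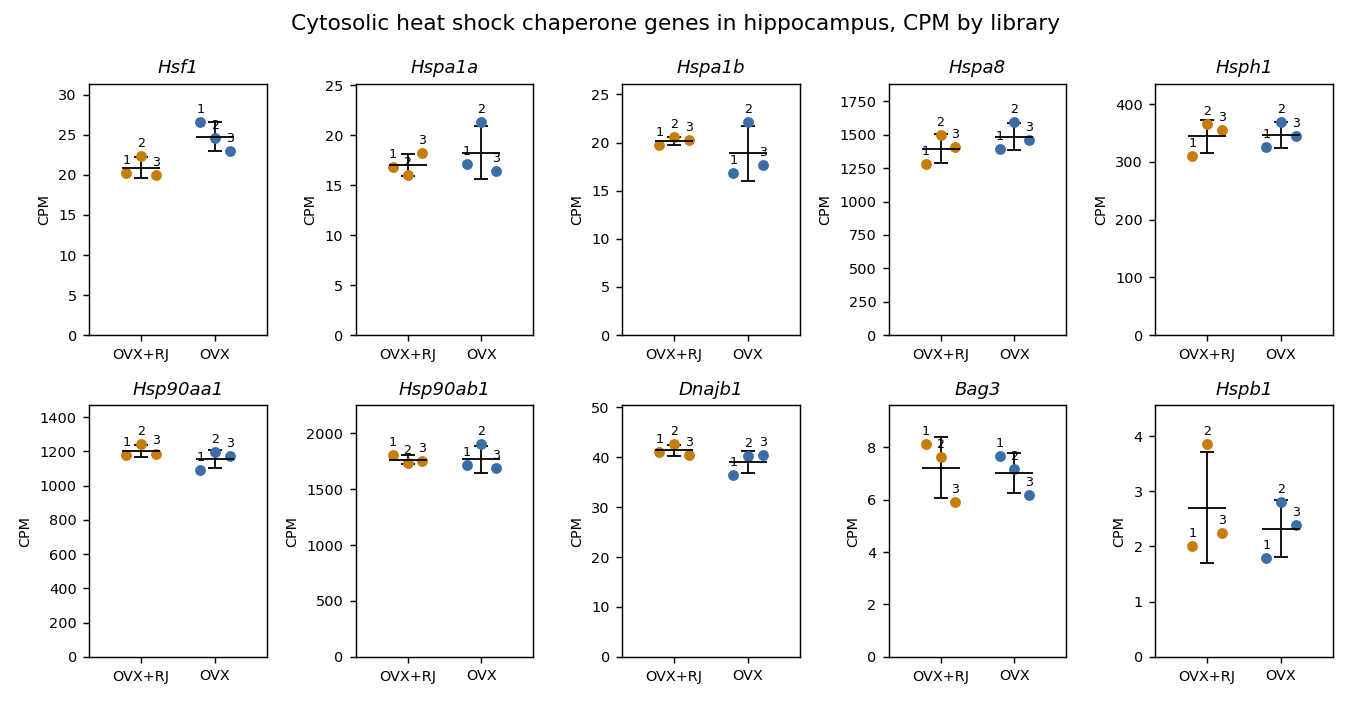
Level of each gene in CPM (vertical axes, linear from 0) for OVX+RJ and OVX. Points are libraries with their replicate number, and black bars are the mean and SD of 3. Hsf1 is the gene whose OVX+RJ libraries, at 20.0 to 22.4 CPM, all lie below the OVX libraries, at 23.0 to 26.6 CPM.

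Hsf1 encodes the transcription factor that activates heat-inducible chaperone genes. It was 20.2, 22.4 and 20.0 CPM in OVX+RJ 1, 2 and 3, against 26.6, 24.6 and 23.0 CPM in OVX 1, 2 and 3. All OVX+RJ values lay under all OVX values. The means were 20.9 ± 1.32 and 24.8 ± 1.80 CPM (SD, n = 3 each), and the log2 fold change was -0.23 (SE 0.094, limma's 95% interval -0.44 to -0.027). The unadjusted p was 0.0296 and the adjusted p by edgeR 0.986, rank 418 of the genes tested. With any 1 library left out the log2 fold change stayed between -0.28 and -0.18. The unadjusted p was 0.0965 without OVX+RJ 3, 0.115 without OVX 1 and 0.0648 without OVX 2, and under 0.05 without any of the other libraries.

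Groups did not overlap at 2 members, Hsf1 lower and Dnajb1 higher, against a background of 10.5% of genes tested, 4.53% higher and 5.95% lower. With TMM factors added to the scaling the background was 10.1%, and Dnajb1 no longer stood apart, with OVX+RJ 3 at 40.4 CPM against 40.5 CPM for OVX 3.

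**Figure D2:**
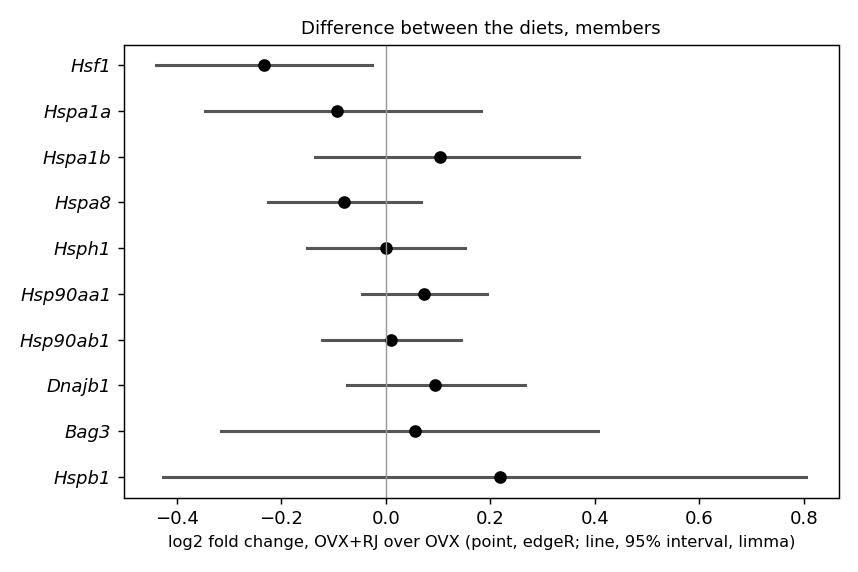
Log2 fold change of OVX+RJ over OVX for each gene. Points are edgeR estimates and lines are limma's 95% intervals. The interval of Hsf1 ends at -0.027, those of the other 9 genes include 0, and that of Hspb1 is the widest, from -0.43 to 0.80.

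Hspa1a and Hspa1b, the stress-inducible HSP70 genes, were expressed at a low level in both groups. Hspa1a was 16.8, 16.0 and 18.2 CPM in OVX+RJ 1, 2 and 3, against 17.1, 21.3 and 16.4 CPM in OVX 1, 2 and 3. Hspa1b was 19.7, 20.6 and 20.3 CPM in OVX+RJ, against 16.8, 22.1 and 17.7 CPM in OVX. For both genes OVX 2 was the highest library, and the groups overlapped. The log2 fold changes were -0.093 (SE 0.12) for Hspa1a and 0.10 (SE 0.12) for Hspa1b, each with an adjusted p of 0.986 by edgeR. Without OVX 2 that of Hspa1a was 0.039, and that of Hspa1b was 0.24.

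These copies cannot be fully told apart in sequencing reads. Of all 100-base stretches of the GENCODE M21 transcript of Hspa1a, 47.1% also occur in Hspa1b, and 49.9% of those of Hspa1b occur in Hspa1a. Neither the read length nor the handling of reads that align to more than 1 place is given in the sources used here. The counts of both were therefore also added. The sum was 36.5, 36.6 and 38.5 CPM in OVX+RJ 1, 2 and 3, against 33.9, 43.5 and 34.1 CPM in OVX 1, 2 and 3. The means were 37.2 ± 1.12 and 37.1 ± 5.48 CPM (SD, n = 3 each), with a log2 fold change of 0.011 (SE 0.10) and an adjusted p of 0.993 by edgeR. Limma's 95% interval ran from -0.20 to 0.25. The OVX+RJ sums lay within the range of the OVX sums, in which OVX 2 was above the other libraries.

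**Figure D3:**
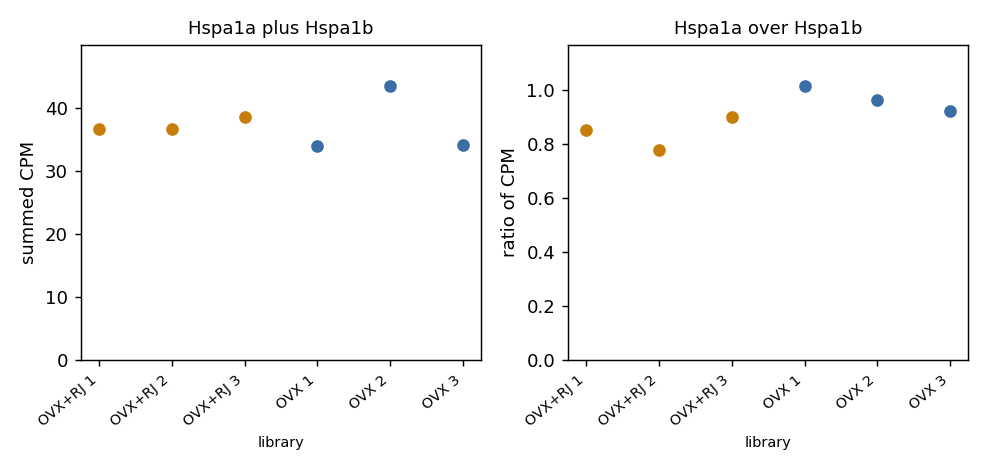
Summed CPM of Hspa1a and Hspa1b (left) and their ratio (right) in each library, OVX+RJ in orange and OVX in blue, both axes linear from 0. The sums overlap, and the ratios run from 0.778 to 0.900 in OVX+RJ and from 0.924 to 1.02 in OVX.

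The ratio of Hspa1a to Hspa1b was 0.852, 0.778 and 0.900 in OVX+RJ 1, 2 and 3, against 1.02, 0.963 and 0.924 in OVX 1, 2 and 3. The groups did not overlap, with means of 0.843 ± 0.062 and 0.968 ± 0.047 (SD, n = 3 each). A two-sided exact permutation test gave p = 0.1, the smallest that 3 against 3 libraries allow, and 0.167 after Benjamini-Hochberg adjustment over the 5 ratios of members that were computed. The ratio was taken up after the values were seen, and groups that do not overlap always give this smallest p. The p therefore adds no support, and the share of other gene pairs with ratios that do not overlap was not computed. How shared reads were divided between the copies was not tested.

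Hspa8 encodes the constitutive HSC70, and Hsph1 the HSP110 protein that acts as its nucleotide exchange factor. Hspa8 was 1280, 1497 and 1408 CPM in OVX+RJ 1, 2 and 3, against 1397, 1596 and 1461 CPM in OVX 1, 2 and 3, with the groups overlapping. Its log2 fold change was -0.080 (SE 0.067), with an adjusted p of 0.986 by edgeR. Hsph1 was 310.5, 365.4 and 355.7 CPM in OVX+RJ, against 324.9, 368.9 and 344.5 CPM in OVX. OVX+RJ 1 was the lowest and OVX 2 the highest library for both genes. The log2 fold change of Hsph1 was 0.00031 (SE 0.069, 95% interval -0.15 to 0.15) and its sign turned with the scaling, at -0.0095 with library totals alone.

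The ratio of Hsph1 to Hspa8 varied less between libraries than either gene. Hsph1 over Hspa8 was 0.243, 0.244 and 0.253 in OVX+RJ 1, 2 and 3, against 0.233, 0.231 and 0.236 in OVX 1, 2 and 3. The groups did not overlap, and the exact permutation p was 0.1, the smallest possible, and 0.167 adjusted over the 5 ratios. No ratio was among the planned tests, and groups that do not overlap always give this smallest p, so it adds no support. The exact permutation p was 0.2 for Hspa8 over Hspa1b and 0.1 for Dnajb1 over Hspa8, which were also computed. Of the 100-base stretches of the Hspa8 transcript 63.4% also occur in other GENCODE genes, most of them in Gm15459, a predicted gene that was itself given 4456, 5364 and 4587 counts in OVX+RJ and 4486, 8490 and 5501 counts in OVX. The Hsph1 transcript shares none.

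Hsp90aa1 and Hsp90ab1 encode the inducible and the constitutive cytosolic HSP90. Hsp90aa1 was 1179, 1245 and 1188 CPM in OVX+RJ 1, 2 and 3, against 1094, 1197 and 1171 CPM in OVX 1, 2 and 3. The groups overlapped, OVX 1 was the lowest library, and the log2 fold change was 0.073 (SE 0.055, adjusted p 0.986 by edgeR). Hsp90ab1 was 1809, 1738 and 1748 CPM in OVX+RJ, against 1712, 1906 and 1686 CPM in OVX. Its log2 fold change was 0.0090 (SE 0.061, 95% interval -0.12 to 0.14), with the sign turning to -0.0026 under library totals alone. The ratio of Hsp90aa1 to Hsp90ab1 was 0.683 ± 0.032 in OVX+RJ and 0.654 ± 0.036 in OVX (SD, n = 3 each), with an exact permutation p of 0.4. Of the 100-base stretches of the Hsp90aa1 transcript 47.5% occur in other GENCODE genes, and of the Hsp90ab1 transcript none.

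Dnajb1 encodes the J-domain protein that stimulates HSP70. It was 41.0, 42.7 and 40.5 CPM in OVX+RJ 1, 2 and 3, against 36.5, 40.3 and 40.4 CPM in OVX 1, 2 and 3. OVX+RJ 3 and OVX 3 differed by less than their counting error, which was 2.62% and 2.46%. The log2 fold change was 0.094 (SE 0.078), with an adjusted p of 0.986 by edgeR.

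Bag3 encodes a cochaperone that links HSP70 and small heat shock proteins to selective autophagy. It was 8.13, 7.62 and 5.90 CPM in OVX+RJ 1, 2 and 3, against 7.66, 7.19 and 6.18 CPM in OVX 1, 2 and 3. The groups overlapped, and replicate 3 was the lowest library of each. The log2 fold change was 0.056 (SE 0.16), and it was -0.050 without OVX+RJ 1 and -0.020 without OVX 3.

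Hspb1 encodes the small heat shock protein HSP25, which holds unfolding protein without ATP. It was 2.00, 3.86 and 2.25 CPM in OVX+RJ 1, 2 and 3, against 1.79, 2.80 and 2.38 CPM in OVX 1, 2 and 3. OVX+RJ 2 was the highest library, and the other OVX+RJ values lay within the OVX range. The log2 fold change was 0.22 (SE 0.28, adjusted p 0.986 by edgeR), and without OVX+RJ 2 it was -0.12. These values rest on 62 to 163 counts a library, with a counting error of 7.83% to 12.7%, and 56.3% of the 100-base stretches of the transcript also occur in Hsp25-ps1, a pseudogene. Endothelial markers, 12 of 12 tested, summed to 213.6 to 252.7 CPM in OVX+RJ libraries, against 254.0 to 256.6 CPM in OVX libraries. Their part in the level of Hspb1 was not tested.

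Levels between genes were set side by side as CPM per kilobase of transcript, averaged over all 6 libraries. Hsp90ab1 was highest at 701, followed by Hspa8 at 601, Hsp90aa1 at 359 and Hsph1 at 90.7 CPM per kilobase, with no overlap between these neighbours over the libraries. The gap between the first pair was small, with Hsp90ab1 at 668.9 or more and Hspa8 at 666.5 or less. With the counts of Gm15459 added to Hspa8, a sum formed after the values were seen, its range was 582.9 to 727.5 CPM per kilobase and overlapped that of Hsp90ab1, so the order of this pair is uncertain. The Hsp90aa1 transcript shares stretches with other genes as well. Dnajb1 followed at 13.4 and Hsf1 at 11.0 CPM per kilobase, whose ranges of 12.2 to 14.3 and 9.60 to 12.8 overlapped. Hspa1b at 6.97 and Hspa1a at 5.94 CPM per kilobase also overlapped, as did Hspb1 and Bag3, both at 2.78. Hspa8, Hsp90aa1 and Hsp90ab1 together took 90.4% to 91.1% of the members' counts in OVX+RJ and 90.6% to 90.7% in OVX. All 10 genes together took 0.469% to 0.496% of a library's counts in OVX+RJ and 0.463% to 0.518% in OVX.

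Spread within a group was larger than counting error for every member, except Hspa1b in OVX+RJ. The coefficient of variation of Hspa8 was 7.82% in OVX+RJ and 6.84% in OVX, where counting error was at most 0.454%. For Hspa1b it was 2.14% in OVX+RJ, under its counting error of 3.51% to 3.70%, and 15.2% in OVX. The widest was Hspb1, at 37.4% in OVX+RJ and 22.0% in OVX.

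Several members were high or low in the same libraries, across the diets. OVX 2 was the highest library for 5 members, Hspa1a, Hspa1b, Hspa8, Hsp90ab1 and Hsph1, and all 10 members were above their own mean over the libraries there. In log2 CPM they were above it by 0.0017 (Dnajb1) to 0.28 (Hspa1a). OVX 1 was the lowest library for Hspa1b, Hsp90aa1, Hspb1 and Dnajb1. It was the highest for Hsf1, and 2 members, Hsf1 and Bag3, were above their own mean there. The share of all genes with such extremes was not computed. The mean log2 CPM of the members, minus its mean over libraries, was -0.021, 0.090 and -0.048 in OVX+RJ 1, 2 and 3, against -0.091, 0.12 and -0.048 in OVX 1, 2 and 3.

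The genes closest in pattern to the sum of Hspa1a and Hspa1b were Il34, Olig1, Carns1, Plod3 and Rnf5, by the root mean square difference of centred log2 CPM over 6 libraries among 14427 protein-coding genes. The difference was 0.023 for Il34, a ligand of the CSF1 receptor, and 0.033 for Olig1, an oligodendrocyte lineage factor. Olig1 was 63.6, 65.0 and 68.1 CPM in OVX+RJ 1, 2 and 3, against 60.8, 81.4 and 61.4 CPM in OVX 1, 2 and 3.

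Markers of mature oligodendrocytes, the myelin-forming glia, also had their lowest value in OVX 1 and their highest in OVX 2. The 10 markers summed to 3894, 4586 and 5234 CPM in OVX+RJ 1, 2 and 3, against 3211, 5329 and 4510 CPM in OVX 1, 2 and 3. The median log2 fold change was 0.091, all 10 being positive, with 0 called by edgeR, DESeq2 or limma-voom and 0 at an unadjusted p under 0.05. OVX 2 was also the deepest library. The part of either in the levels of the members was not tested.

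**Figure D4:**
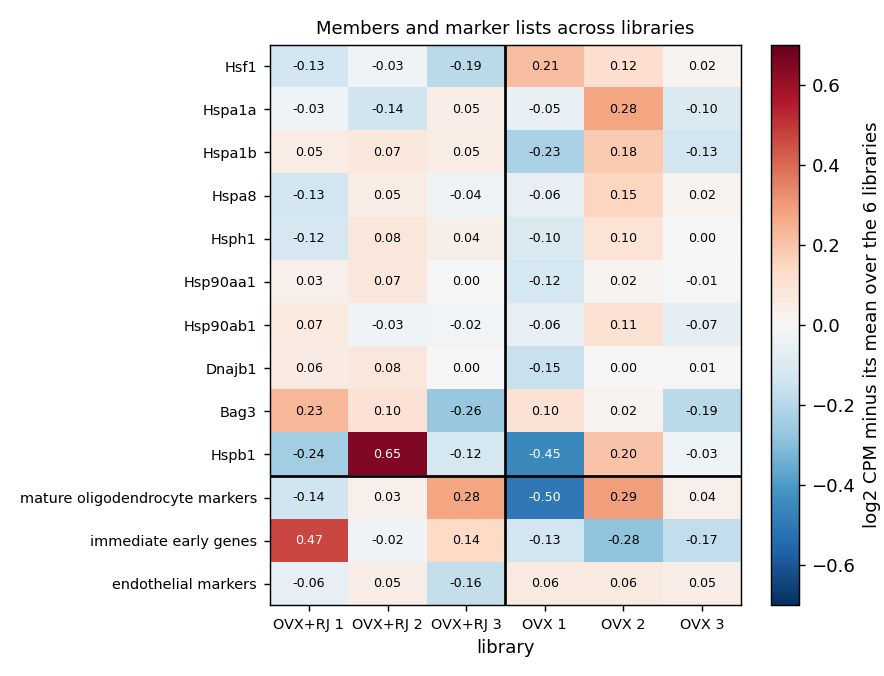
Log2 CPM minus its mean over the 6 libraries (colour and printed value), for the members above the line and, below it, the mean of 3 marker lists, with OVX+RJ left of OVX. In OVX 2 all 10 members are above 0, with Dnajb1 at 0.0017. Mature oligodendrocyte markers range from -0.50 in OVX 1 to 0.29 in OVX 2.

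Other heat shock genes were read from lists of related function, and none was called in any of these lists by edgeR, DESeq2 or limma-voom. At an unadjusted p under 0.05 by edgeR they held only Hsf1, lower, and Hspa14, higher, against a background of 4.05% of all genes tested. The lists held 6 to 26 tested genes each, some of them shared, and no list was tested as a set. Among heat shock factors and their regulators, 4 of 6 tested genes were positive and 2 negative, around a median of 0.10 on the log2 scale. Hsf5 and Hsf2bp did not pass the filter on low counts. Hsf2, a second heat shock factor, was 30.4, 31.4 and 30.6 CPM in OVX+RJ 1, 2 and 3, against 28.9, 28.2 and 29.4 CPM in OVX 1, 2 and 3. These groups did not overlap, at a log2 fold change of 0.11 (SE 0.077, adjusted p 0.986 by edgeR), opposite in sign to Hsf1. The log2 fold changes of Ier5 and Dedd2, both reported to regulate or respond to HSF1, were 0.15 and 0.16.

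The median log2 fold change of 12 J-domain cochaperone genes was 0.060, with 10 positive, and 0 passed an unadjusted p of 0.05. In 5 of the 12 the OVX+RJ libraries all lay above the OVX libraries, Dnajb1 included, against 4.53% of all genes tested. With TMM factors in the scaling, 5 also stood apart, Dnajb1 no longer among them, against 4.9% of all genes tested. Dnajb14 was 168.9, 169.9 and 170.7 CPM in OVX+RJ 1, 2 and 3, against 159.2, 150.6 and 167.6 CPM in OVX 1, 2 and 3. Dnajb4 and Dnajb6 had log2 fold changes of 0.11 and 0.082. The adjusted p of each of these 3 was 0.986 by edgeR.

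The HSP70 and HSP110 family was split, with 6 of 11 positive and a median of 0.00031. Hspa14, known in human cells as ribosome-associated, was 29.2, 28.5 and 30.0 CPM in OVX+RJ 1, 2 and 3, against 27.1, 25.0 and 26.1 CPM in OVX 1, 2 and 3. Its log2 fold change was 0.18 (SE 0.081), with an unadjusted p of 0.0458 and an adjusted p of 0.986 by edgeR. Hspa12b, expressed in endothelium, and Hspa2 had log2 fold changes of -0.43 and -0.077. Of the 12 endothelial markers 8 were negative, at a median of -0.15, with 0 called by edgeR, DESeq2 or limma-voom and 2 lower at an unadjusted p under 0.05. Their part in the level of Hspa12b was not tested.

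HSP90 cochaperones showed 11 negative and 6 positive of 17 genes, the HSP90 genes included, with a median of -0.0099. Unc45a, a myosin and HSP90 cochaperone, had a log2 fold change of 0.16, and Fkbp5 of -0.093. Nucleotide exchange factors and BAG genes were at a median of -0.0089, 5 of 10 positive, with Bag6 at -0.085, Bag4 at 0.087 and Hspa4l at 0.074. Small heat shock proteins were at a median of 0.0075, 3 of 6 positive, with Hspb7 and Hspb9 under the filter. Their extremes were genes of low level, Hspb3 at -0.69 and Hspb6 at 0.31, while Cryab, the abundant glial member, was at -0.016.

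Chaperone systems outside the members' own machinery were read in the same way. The CCT chaperonin and prefoldin, which fold actin and tubulin, were at a median of -0.00093, 7 of 14 positive, with Cct6a at 0.11, Pfdn5 at -0.11 and Cct8 at 0.080. Mitochondrial chaperones were at -0.096, 2 of 7 positive, with Hspa9 at 0.10, Grpel1 at -0.14 and Dnaja3 at -0.10. Endoplasmic reticulum chaperones were at 0.036, 5 of 8 positive, with Pdia4 at -0.13, Dnajb9 at 0.091 and Hsp90b1 at 0.060. The 26 heat-inducible targets of HSF1, which hold 8 of the members, were at 0.025 with 15 positive, and their lowest was Serpinh1, the collagen chaperone, at -0.31.

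Immediate early genes, induced rapidly by neuronal activity, were measured in the same libraries. They summed to 1039, 954.4 and 1031 CPM in OVX+RJ 1, 2 and 3, against 831.7, 801.0 and 825.9 CPM in OVX 1, 2 and 3, with 19 of 22 positive and a median of 0.43. The count called was 0 by edgeR, 0 by limma-voom and 6 by DESeq2, where the background was 0.0698% of all genes tested. At an unadjusted p under 0.05 by edgeR there were 9 of them, all higher, against 2.14% of all genes tested. In that direction there were 0 of the 10 chaperone genes. The lists were chosen with earlier results of these data known, so these counts are not a test of the immediate early genes. OVX+RJ 1, where the immediate early genes were highest, was the lowest library for Hspa8 and Hsph1 and the highest for Bag3. The difference between the lists was not tested.

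**Figure D5:**
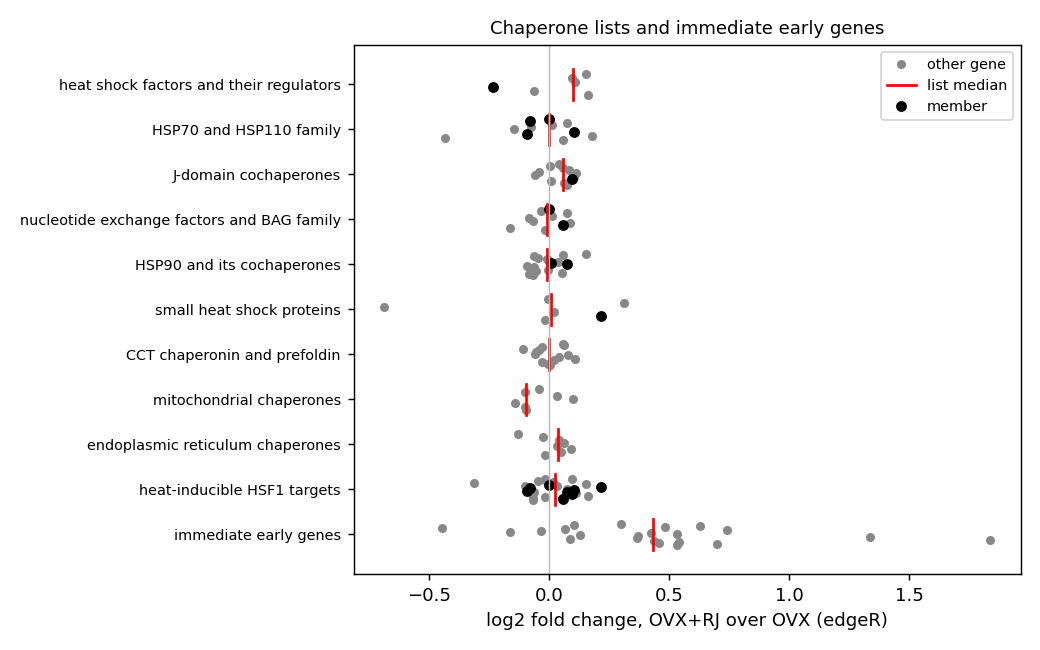
Log2 fold change of OVX+RJ over OVX (horizontal axis) for each tested gene of 10 chaperone lists and of the immediate early genes. Black points are members, grey points other genes and red lines list medians. Chaperone medians lie between -0.096 and 0.10, and that of immediate early genes is at 0.43.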

How the data were processed

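The deposited table holds estimated counts for each gene symbol, unscaled, and 51 of 32067 features had a value that was not exactly whole (tolerance 0). Per the submitters' processing notes, the tools were StringTie 2.2.1, HISAT2 2.2.1, fastp 0.23.4 and bcl2fastq 2.19, and the build GRCm39, with no roles stated. Annotation and strand setting are not given in the labels. Counts were rounded, filtered by filterByExpr to 18629 features, scaled by TMM and tested with edgeR 4.0.16 (quasi-likelihood) in R 4.3.3, with a threshold of 0.05. Standard errors and intervals are from limma 3.58.1 on log2 CPM (prior count 2). CPM per library uses column totals alone. DESeq2 1.42.0 was an alternative. The test was checked on simulated data, in 3 runs with 200 altered genes each. Its call rate rose with the size of the simulated difference. It was 51.3% at 1.5-fold (100 of 195 genes), 74.2% at 2-fold (147 of 198) and 95.3% at 4-fold (182 of 191). Among 54329 unaltered genes, 17 were called (0.0313%). The altered genes were drawn at random from all genes tested, so these rates are not those of the members. A lack of calls alone therefore does not exclude a difference of 1.5-fold in a single gene. For 9 members the limma intervals lay within 0.5 of 0 on the log2 scale, Hspb1 being the exception. Counting errors are Poisson and cover counting alone. Transcript lengths and shared 100-base stretches came from GENCODE M21 (GRCm38), another build, matched by symbol.

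The members and lists were chosen with earlier results of these data known. Genes named beside the members are the 3 of each chaperone list with the lowest p and the 5 closest in pattern to the sum of Hspa1a and Hspa1b, except 1 gene that is not reported here. P-values set the difference between the groups against the spread between these libraries. Marker lists of pericytes, choroid plexus, microglia, astrocytes and red blood cells were also read. Their medians of log2 fold change were -0.15, 0.72, -0.016, -0.055 and -0.14, with 0 genes called by edgeR, DESeq2 or limma-voom. At an unadjusted p under 0.05 by edgeR, 2 of 10 pericyte markers were lower, and 3 of 7 choroid plexus and 1 of 10 astrocyte markers higher. There were 0 of 10 microglia markers and 0 of 5 red blood cell genes. Of all genes tested, 1.91% were lower and 2.14% higher at that threshold. Choroid plexus markers summed to 30.6 to 58.8 CPM in OVX+RJ and 30.4 to 40.3 CPM in OVX. Their part in the levels of the members was not tested.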

Additional observations from a re-analysis of the deposited data

How the results depend on the processing

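The count of members called was 0 under all 15 alternatives run, by edgeR, DESeq2 and limma-voom alike. Over all genes tested the count was 0 in the main test, 13 by DESeq2, 3 with robust empirical Bayes, and between 0 and 8 with 1 library left out, the 8 being without OVX+RJ 2. Of the immediate early genes, 6 were among those called by DESeq2, 2 with robust empirical Bayes and 4 without OVX+RJ 2. The replicate number as a block gave 1 called gene and 0 called members. Deviations of libraries with the same number correlated at 0.046, -0.0024 and 0.0031. Those of libraries with differing numbers correlated at -0.044 to 0.045. Whether the numbers pair the libraries cannot be settled from 3 libraries a group. For the sum of Hspa1a and Hspa1b the log2 fold change was -9.35e-06 with library totals alone and ran from -0.056 to 0.14 with 1 library left out. Signs also turned for Hsp90ab1 (-0.0026 with library totals alone, -0.00075 with every feature tested, -0.020 to 0.069 with 1 library left out). For Hsph1 they turned to -0.0095, -0.0093 and, by limma-voom, -0.0036, with -0.048 to 0.059 over the left-out libraries. With 1 library left out, Hspa1a ran from -0.16 to 0.039, Hspb1 from -0.12 to 0.39 and Bag3 from -0.050 to 0.19. The cause was not tested. Hsf1, Hspa1b, Hspa8, Hsp90aa1 and Dnajb1 kept their direction under all 15. TMM factors moved no mean CPM of a member by more than 1 SD. Hspb1 had 62 to 163 counts a library, and its counting error of 7.83% to 12.7% was under its coefficient of variation of 37.4% in OVX+RJ and 22.0% in OVX.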
